A study of Mus musculus with 8 samples.

Results

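The mitochondrial route from propionyl-CoA to succinyl-CoA was followed through 7 genes, Pcca, Pccb, Mcee, Mut, Mmaa, Mmab and Mmachc, out of 38741 gene symbols with an expression value in mouse gastrocnemius. The genes were chosen by symbol for their biochemical role, with earlier results of these data known. Each had 1 row in the table, and all 7 passed the filter on low values, a mean of at least 1 FPKM over 8 mice. FPKM scales fragments to exon length and to the mapped fragments of the library, so levels can be compared between genes. The muscle came from 4 male wild-type mice (WT1 to WT4), 9 to 10 weeks old and 22 to 25 g, and from 4 male mice homozygous for the Bcat2tm1.2Clyn allele (KO5 to KO8), 10 to 11 weeks old and 15 to 24 g. All were on a C57BL6 background, and dams and weaned mice of both genotypes could choose between chow and a diet lacking branched-chain amino acids. The labels name no promoter or cell type for the allele. Bcat2 encodes the mitochondrial branched-chain aminotransferase, the enzyme that removes the amino group of leucine, isoleucine and valine. The design text calls the mice biological replicates, so p-values measure the spread between mice.

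Propionyl-CoA is a product of valine and isoleucine breakdown, and also of methionine, threonine and odd-chain fatty acids. Propionyl-CoA carboxylase, a biotin enzyme built of the subunits encoded by Pcca and Pccb, turns it into methylmalonyl-CoA. The epimerase encoded by Mcee converts that product into the isomer that the mutase, encoded by Mut, rearranges to succinyl-CoA, an intermediate of the citric acid cycle. The mutase needs adenosylcobalamin, a form of vitamin B12. Mmachc processes cobalamin in the cytosol, Mmab adds the adenosyl group in the mitochondrion, and Mmaa guards the loading of the mutase with its cofactor. Loss of function in these genes causes propionic acidaemia, methylmalonic acidaemia or combined methylmalonic aciduria and homocystinuria in people. The comparison asks whether transcripts at the far end of valine and isoleucine breakdown differ when its first enzyme is missing.

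The 7 genes lie on 7 chromosomes, and 5 of them start head to head with a neighbour on the opposite strand. The neighbours are Mphosph10 for Mcee, Cenpq for Mut, the non-coding Gm4890 for Mmaa, Mvk for Mmab and Ccdc163 for Mmachc, with starts 103 to 377 bases apart; those of Mut and Cenpq overlap. By the same rule, a divergent start within 1000 bases, 21.5% of 10052 tested protein-coding genes have such a neighbour, against 71.4% of these 7. The stretches between 3 of these pairs of starts are shown, those of Mmab, Mcee and Mmachc. Those of Mut, which matched no RefSeq promoter, and of Mmaa are not shown. They are intergenic and read from RefSeq promoter windows of build GRCm38.p6, on the strand of the pathway gene, and for Mcee only the part inside its window is shown. Capitals mark matches on either strand to the CCAAT box (CCAAT) and the GC box (GGGCGG).
Mmab to Mvk, chr5:114444061-114444268, minus strand: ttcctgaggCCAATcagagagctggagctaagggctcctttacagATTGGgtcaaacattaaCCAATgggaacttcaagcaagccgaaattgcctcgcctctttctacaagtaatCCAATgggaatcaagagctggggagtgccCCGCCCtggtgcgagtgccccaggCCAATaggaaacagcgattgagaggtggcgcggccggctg
Mcee to Mphosph10, chr7:64392372-64392606, plus strand: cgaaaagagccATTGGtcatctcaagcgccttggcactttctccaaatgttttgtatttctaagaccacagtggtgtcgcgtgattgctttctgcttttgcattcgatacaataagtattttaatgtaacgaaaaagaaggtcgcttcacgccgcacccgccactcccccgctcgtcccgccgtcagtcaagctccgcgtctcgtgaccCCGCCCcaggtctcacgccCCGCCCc
Mmachc to Ccdc163, chr4:116708407-116708508, minus strand: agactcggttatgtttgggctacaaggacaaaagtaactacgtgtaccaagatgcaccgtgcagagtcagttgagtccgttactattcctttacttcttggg

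The 208 bases between Mmab and Mvk hold 5 CCAAT boxes and 1 GC box. Of 32851 RefSeq promoters, 30.1% have at least 1 CCAAT box in the 208 bases before the start, and 0.103% have 5 or more. The Mcee stretch holds 1 CCAAT box and 2 GC boxes, and the Mmachc stretch holds neither. In stretches as long as that of Mcee, 32.6% of promoters have a CCAAT box and 16.3% have 2 or more GC boxes, and in those as long as that of Mmachc 19.1% and 24.9% have at least 1 of each. None of the 3 stretches has a match to the ETS core CCGGAAG, the E-box CACGTG or the cyclic AMP element TGACGTCA, which 8.86%, 7.15% and 1.79% of the full RefSeq promoter windows hold. A match is only a match of letters, and these motifs were searched after the expression values were known.

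The mice labelled knockout had Bcat2 at 2.09 to 5.26 FPKM against 41.2 to 83.0 FPKM in wild type (limma adjusted p = 0.00245), which checks the labels. The summed FPKM of a library ran from 691168 to 896190, and depth, estimated from the step of the lowest values, from 0.437 to 1.23 times that of WT2. The median of all 11118 tested genes lay 0.12 lower in knockouts on the log2(FPKM + 1) scale, the scale of every difference given here, on which differences of weakly expressed genes come out too small. KO8 lay 0.351 below the mean of the 8 mice by that median, and the other 7 libraries between -0.071 and 0.163. WT1 and KO6 stood apart by fat transcripts: 10 adipocyte markers, all above 0 in every mouse, summed to 15890 and 8381 FPKM there. Among the other mice the sums were 653 to 761 FPKM in WT2 to WT4 and 1344 to 2055 FPKM in KO5, KO7 and KO8. Not every marker went this way, and Plin4 was lower in these knockouts than in WT2 to WT4. Markers of skeletal muscle fibres (9 of 10 found, 8 of them above 0 in every mouse) summed to 78615 to 116352 FPKM, as the tissue label says. In KO6, 8 keratinocyte markers summed to 1402 FPKM, against 2.96 to 9.86 FPKM elsewhere. Sums also differed for fibroblast and matrix markers (435 to 722 FPKM in wild type, 379 to 571 FPKM in knockouts), nerve markers (51.6 to 95.7 and 77.1 to 187 FPKM), endothelial markers (52.1 to 93.9 and 34.8 to 70.7 FPKM) and macrophage markers (123 to 251 and 152 to 375 FPKM, highest in WT1 and KO6), all overlapping between genotypes. The unadjusted limma p was under 0.05 for 4 of 8 fibroblast and matrix and 3 of 7 endothelial markers, all lower in knockouts. It was so for 2 of 8 nerve markers, both higher, and 0 of 7 macrophage markers, against 10.3% of all tested genes. Of the 8 nerve markers, Sox10 lay under the filter and was not tested. Of the 9 muscle fibre markers found, 1, Myh4, had such a p and was lower in knockouts. Groups did not overlap for Col15a1, Cdh5 and the muscle fibre marker Myh1, lower in knockouts, and Ncmap, higher, against 6.75% of all tested genes. Myh1 was listed at 0 in KO7. None passed the adjusted threshold, and the part of these cell types in the differences below was not tested.

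In wild-type muscle the members spanned a wide range of levels. Mcee was the most abundant at 81.9 ± 17.3 FPKM, followed by Pccb at 45.7 ± 12.2, Mut at 19.7 ± 3.91, Pcca at 13.2 ± 4.22, Mmachc at 11.3 ± 2.23, Mmab at 8.89 ± 1.63 and Mmaa at 5.06 ± 0.629 FPKM (SD, n = 4 each). Over all 8 mice Mcee ranked above 92.9% and Mmaa above 42.1% of the tested genes. Most of this order was the same in each mouse: every gene was above the next in 8 of 8 mice, except that Pcca exceeded Mmachc in 5 of 8. Pcca and Mmachc therefore had no fixed order, and their difference in level was not tested. The cofactor genes Mmachc, Mmab and Mmaa were lower than the mutase in every mouse.

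**Figure D1:**
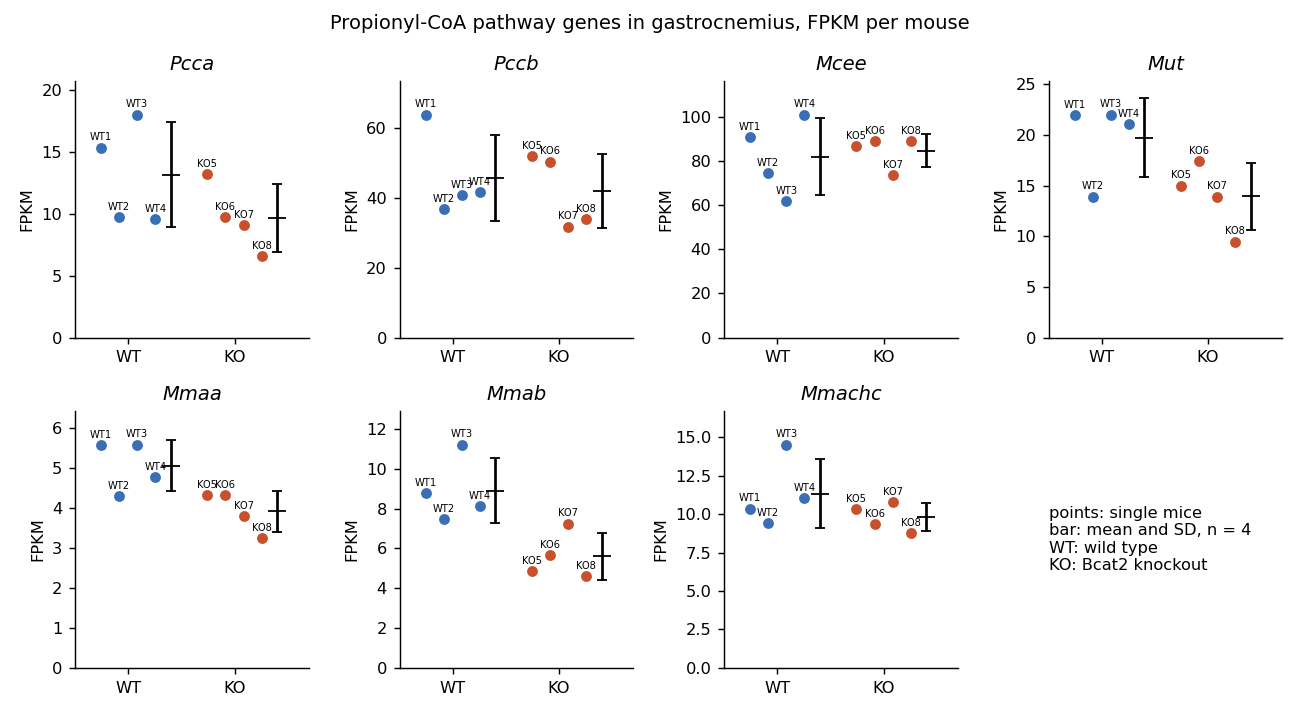
FPKM of each of the 7 genes (y axis, from 0) in 4 wild-type (WT, blue) and 4 Bcat2 knockout (KO, red) mice; points are single mice and the bar gives mean and SD. Mmab is the gene whose groups do not overlap, and Mut in WT2 lies at 13.9 FPKM among the knockouts.

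No member passed the threshold between genotypes: 0 of 7 had a limma adjusted p under 0.05, where 0.027% of all tested genes did. By the unadjusted limma p, 1 of 7 was under 0.05 and it was lower in knockouts, against 10.3% of all tested genes in either direction and 7.33% lower. After median-ratio scaling 2 of 7, Mut and Mmab, were under 0.05 and lower, against 5.16% of all tested genes. The knockout values were lower for 6 members and higher for 1, and 63.6% of all tested genes were lower. The median difference of the 7 was -0.30 beside -0.12 for all tested genes, and after median-ratio scaling -0.18 beside -0.002. In the authors' deposited table, 2 members, Mut and Mmab, carry the mark for a p under 0.05, as 20.2% of the tested genes do, and none carries the mark for a p under 0.001, as 10.8% do. No source used here names the test behind those marks. In bulk muscle, fewer cells of a type and less RNA per cell cannot be told apart.

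**Figure D2:**
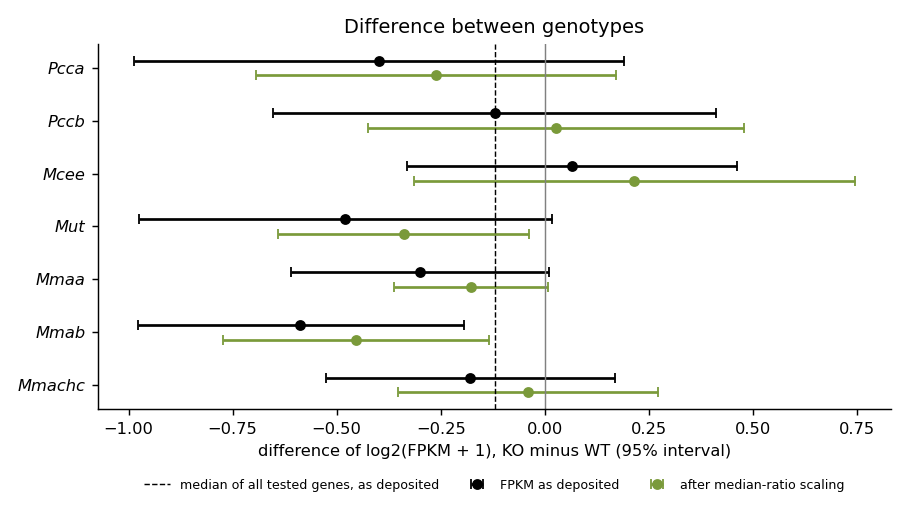
Difference of log2(FPKM + 1), knockout minus wild type, for each gene with its 95% interval from limma (4 mice a group), as deposited (black) and after median-ratio scaling of the libraries (green); the dashed line is the median of all tested genes at -0.12. The interval lies wholly below 0 for Mmab under both scalings and for Mut only after scaling.

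The carboxylase subunits came first in the route. Pcca (ENSMUSG00000041650, mm10 chromosome 14, 122534324 to 122891100, plus strand), whose product carries the biotin, read 15.4, 9.76, 18.1 and 9.57 FPKM in WT1 to WT4 and 13.3, 9.74, 9.13 and 6.58 FPKM in KO5 to KO8. WT1, WT3 and KO5 were high, and the groups overlapped. The difference was -0.40 (SE 0.26, 95% interval -0.99 to 0.19, limma adjusted p = 0.534; exact permutation p = 0.171, 2-sided). It was -0.24 without WT3, -0.25 without KO8 and -0.26 after median-ratio scaling. The 3′ part of Pcca is overlapped by Ggact on the other strand, where wild-type mice had 13.4 ± 2.86 FPKM of Ggact and knockouts 10.7 ± 2.28 (SD, n = 4 each). How much of the overlap is exon of both genes was not examined. No source used here names a strand setting, so reads of any shared exon cannot be assigned with certainty.

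Pccb (ENSMUSG00000032527, chromosome 9, 100982032 to 101034898, minus strand), which forms the carboxyl transfer site, read 63.7, 36.7, 40.8 and 41.5 FPKM in WT1 to WT4, and 51.9, 50.3, 31.7 and 33.9 FPKM in KO5 to KO8. WT1, the library with the most fat transcripts, was the highest, and the other 3 wild-type mice lay within the range of the knockouts. The difference was -0.12 (SE 0.23, 95% interval -0.65 to 0.41, limma adjusted p = 0.819; exact permutation p = 0.686, 2-sided). Without WT1 it was 0.05, of the opposite sign. The part of fat in the values of Pccb was not tested.

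Although both subunits belong to the same enzyme, Pccb exceeded Pcca in all 8 mice. The ratio of Pccb to Pcca was 4.14, 3.76, 2.26 and 4.34 in wild type and 3.92, 5.17, 3.48 and 5.15 in knockouts. It was lowest in WT3, where Pcca was at its highest, and the groups overlapped. As deviations from the genotype means over the 8 libraries, the subunits had a Pearson r of 0.59, a description that the shared depth and offset of each library enters.

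Mcee (ENSMUSG00000033429, chromosome 7, 64392645 to 64412121, plus strand), the epimerase, read 90.5, 74.3, 61.8 and 100.9 FPKM in WT1 to WT4, and 86.8, 89.0, 73.7 and 88.8 FPKM in KO5 to KO8. The knockout values all lay inside the wild-type range. The difference was 0.07 (SE 0.17, 95% interval -0.33 to 0.46, limma adjusted p = 0.872; exact permutation p = 0.714, 2-sided), an interval of 79.6% to 138% of the wild-type level. After median-ratio scaling it was 0.215. It had the opposite sign without WT3, at -0.06, and with the trend on exon length and GC content removed, at -0.11. Mphosph10, a nucleolar protein gene that starts head to head with Mcee, read 7.37 ± 1.92 and 7.47 ± 1.68 FPKM (SD, n = 4 each). Mcee is also the shortest member, with 956 bases of exon in GENCODE against 2224 to 6023 bases for the others. With the tested genes in 5 equal bins of exon length, the median difference was 0.09 in the bin of Mcee, up to 1957 bases, and in the next 4 bins it was -0.07, -0.14, -0.17 and -0.20. What part length has in the differences was not tested beyond the trend correction.

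Mut (ENSMUSG00000023921, chromosome 17, 40934685 to 40961989, plus strand), the mutase, read 22.0, 13.9, 22.0 and 21.1 FPKM in WT1 to WT4, and 15.0, 17.4, 13.9 and 9.48 FPKM in KO5 to KO8. WT1, WT3 and WT4 were above every knockout, and WT2 lay among them. The difference was -0.48 (SE 0.22, 95% interval -0.98 to 0.02, limma adjusted p = 0.484; exact permutation p = 0.114, 2-sided). After median-ratio scaling it was -0.34 (limma adjusted p = 0.412, unadjusted p = 0.0323). KO8, the library with the low offset, had the lowest value, and without it the difference was -0.32 (limma adjusted p = 0.666).

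The values of Mut went with the listing of a neighbour that shares its first exon. Cenpq, a kinetochore protein gene on the other strand, has a first exon at 40934383 to 40935047 in GENCODE, which covers all 95 bases of the first exon of Mut, at 40934685 to 40934779, both untranslated. Cenpq was listed at 0 in WT1, WT3 and WT4 and at 3.10 FPKM in WT2, and at 4.08, 5.86, 4.02 and 3.09 FPKM in KO5 to KO8. The 3 mice with Cenpq at 0 were the 3 with Mut at 21.1 to 22.0 FPKM, and in the 5 mice with Cenpq above 0, WT2 included, Mut read 9.48 to 17.4 FPKM. The FPKM of both genes were also weighted by exon length and summed, a rough measure of their joint share of fragments. The wild-type mice gave 83.1, 60.7, 83.4 and 79.8 and the knockouts 67.4, 81.1, 63.2 and 43.9. The joint values overlapped more than those of Mut, with KO6 inside the range of WT1, WT3 and WT4. Cenpq itself did not pass (difference 1.86, limma adjusted p = 0.48). The first exon makes up 95 of the 3786 bases of exon of Mut, and the sum also counts the reads of Cenpq itself. How far the overlap makes the level of Mut uncertain was not measured. Whether the assignment of reads between both genes sets the difference of Mut was not tested.

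**Figure D3:**
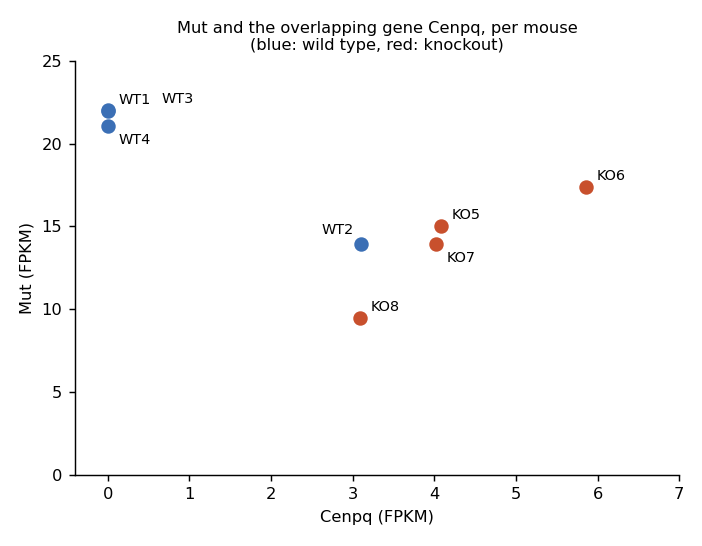
Mut (y axis, FPKM from 0) against Cenpq (x axis, FPKM), whose first exon covers that of Mut on the opposite strand; each point is a mouse, blue wild type and red knockout. WT1, WT3 and WT4 sit at a Cenpq of 0 and a Mut of 21.1 to 22.0 FPKM, and WT2 lies with the knockouts.

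Mmab had the largest difference of the members as deposited; with the length and GC trend removed Mut was larger (-0.53 against -0.44), and without KO5 Pcca was (-0.55 against -0.54). Mmab (ENSMUSG00000029575, chromosome 5, 114431034 to 114444059, minus strand), the adenosyltransferase that makes the cofactor of the mutase, read 8.77, 7.48, 11.2 and 8.11 FPKM in WT1 to WT4, and 4.87, 5.68, 7.24 and 4.61 FPKM in KO5 to KO8. All 4 knockouts lay below all 4 wild-type mice, with KO7 just under WT2. The knockout mean was 63.0% of the wild-type mean, at 5.60 ± 1.19 against 8.89 ± 1.63 FPKM (SD, n = 4 each). The difference was -0.59 (SE 0.17, 95% interval -0.98 to -0.20), at an unadjusted limma p of 0.00827 and a limma adjusted p = 0.48, so it did not pass over all genes. The exact permutation p was 0.0286 (2-sided), the smallest that 4 against 4 mice can give. It was 1 of 7 members whose groups did not overlap, against 6.75% of all tested genes. Relative to the all-gene median of each library Mmab was 0.16 to 0.45 in wild type and -0.42 to 0.11 in knockouts, again with no overlap.

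Mvk, mevalonate kinase of the sterol pathway, starts 210 bases from Mmab in the other direction, across the CCAAT-rich stretch shown above. Mvk read 5.74, 2.54, 3.43 and 6.74 FPKM in WT1 to WT4, and 2.98, 9.66, 6.13 and 4.29 FPKM in KO5 to KO8. The groups overlapped, with the highest value in KO6, and the difference was 0.24 (SE 0.35, limma adjusted p = 0.757). WT3, the highest mouse for Mmab, was among the lowest for Mvk. The difference between the responses of both genes was not tested.

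Mmaa (ENSMUSG00000037022, chromosome 8, 79266424 to 79294956, minus strand), the GTPase that guards the mutase, was the least abundant member. It read 5.57, 4.30, 5.58 and 4.78 FPKM in WT1 to WT4, and 4.31, 4.32, 3.79 and 3.25 FPKM in KO5 to KO8. WT2 lay just below KO5 and KO6, and the other 3 wild-type mice were above all knockouts. The difference was -0.30 (SE 0.14, 95% interval -0.61 to 0.01, limma adjusted p = 0.484; exact permutation p = 0.0857, 2-sided), and after median-ratio scaling -0.18. Relative to the all-gene median of each library, the groups of Mmaa did not overlap, at 0.04 to 0.17 in wild type and -0.17 to -0.005 in knockouts. On that relative scale 2 of 7 members, Mmaa and Mmab, had groups that did not overlap, both lower in knockouts, against 6.82% of all tested genes in either direction and 2.91% lower. Gm4890, the non-coding gene that starts beside Mmaa, stayed at or under 0.621 FPKM in every mouse and was not tested.

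Mmachc (ENSMUSG00000028690, chromosome 4, 116702279 to 116708406, minus strand), which strips and trafficks cobalamin for both mitochondrial and cytosolic use, read 10.4, 9.40, 14.5 and 11.0 FPKM in WT1 to WT4, and 10.3, 9.34, 10.8 and 8.77 FPKM in KO5 to KO8. WT3 was high and the other 7 mice were close together. The difference was -0.18 (SE 0.15, 95% interval -0.53 to 0.17, limma adjusted p = 0.613; exact permutation p = 0.2, 2-sided), without WT3 -0.06 and after median-ratio scaling -0.04. Beside it, Ccdc163 was listed at 0 in 7 of 8 mice, and Prdx1, a peroxiredoxin on its other side, read 352 ± 82.6 and 385 ± 46.5 FPKM (SD, n = 4 each).

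A ratio of 2 members within a mouse is free of that library's overall offset. The ratio of Mmachc to Mmab, an upstream against a downstream step of cofactor synthesis, was 1.18, 1.26, 1.29 and 1.36 in wild type and 2.12, 1.64, 1.49 and 1.90 in knockouts. The groups did not overlap, and the knockout ratios were also more spread, at 1.79 ± 0.279 against 1.27 ± 0.0745 (SD, n = 4 each). Mmab, the lower term of this ratio, is the member whose own groups did not overlap. The ratio of the epimerase Mcee to Mut was 4.12, 5.34, 2.81 and 4.79 in wild type and 5.78, 5.12, 5.29 and 9.37 in knockouts, with an overlap at WT2 and KO8 far above the rest. The ratio of Mut to Mmab overlapped widely, from 1.86 to 2.60 and from 1.92 to 3.08. Those of Mut to Mmaa and of Pccb to Mut overlapped too. How often ratios of other gene pairs do not overlap was not examined. These ratios were chosen with the values of the genes known and are given with no test.

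**Figure D4:**
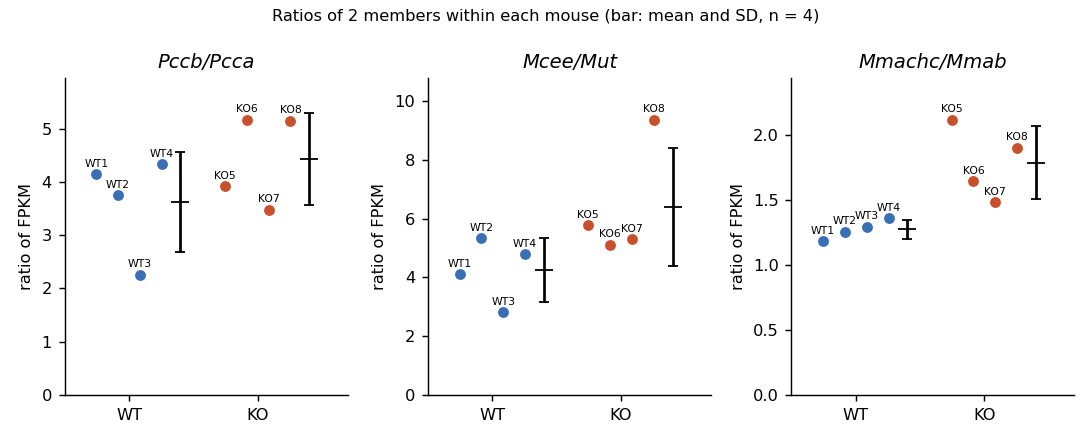
Ratios of the FPKM of 2 members within each mouse (y axes from 0, no unit), for Pccb to Pcca, Mcee to Mut and Mmachc to Mmab; points are mice and bars give mean and SD. The ratio of Mmachc to Mmab lies at 1.18 to 1.36 in wild type and at 1.49 to 2.12 in knockouts.

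The members shared some of their variation within genotypes. Mmaa went with Mut (Pearson r = 0.91 over 8 libraries, as deviations from the genotype means) and with Pcca (r = 0.90), and Mmab with Mmachc (r = 0.79). Mcee ran against Mmab (r = -0.63) and Mmachc (r = -0.59). These values are descriptions, since all genes of a library share its depth and offset. Of the 7 genes, 5 were highest in WT3, as were 33.5% of all tested genes, and 5 were lowest in KO8, as were 50.5%. Among all tested genes, those most like each member over the same deviations included Smg9 for Pcca (r = 0.974), Kdelr2 and Klhl5 for Pccb (0.990 and 0.988), and Stk19 and Ndufa5 for Mcee (0.977 and 0.945). For Mut they were Mtpap and Kctd11 (0.991 and 0.990), for Mmaa Acta2 and Galnt16 (0.990 and 0.988), for Mmab Dnajc30 and Rpap1 (0.991 and 0.988), and for Mmachc Apba3 (0.978).

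The fat-rich libraries did not rank alike for the members. WT1 was the highest mouse for Pccb and the second for Pcca, Mcee, Mut, Mmaa and Mmab, while KO6 ranked from the third for Pccb and Mcee to the seventh for Mmachc. Without WT1 and KO6 the difference of Mmab was -0.60 (limma adjusted p = 0.445), against -0.59 with all mice. That of Mut was -0.53 and that of Pcca -0.33 without them. Adipocyte markers still summed higher in the knockouts than in the wild-type mice that remained, so this comparison cannot separate fat from genotype.

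The reactions around the route were read from 6 gene lists, and no gene in them passed the threshold by limma. Feeding the route, 13 of 14 tested genes listed for valine and isoleucine breakdown were lower in knockouts, beside 63.6% of all tested genes. Their median difference was -0.22, beside -0.12 for all tested genes (-0.08 and -0.002 after median-ratio scaling). The unadjusted limma p was under 0.05 for 2, both lower, against 7.33% of all tested genes. Bckdha, which encodes part of the complex that oxidises branched-chain keto acids, read 80.0 ± 8.13 and 60.9 ± 2.49 FPKM (SD, n = 4 each, limma adjusted p = 0.48) with no overlap. It was the 1 of 14 without overlap, where 4.68% of all tested genes did not overlap on the lower side. Hadha, a subunit of the trifunctional protein of fatty acid oxidation, read 97.6 ± 20.6 and 62.2 ± 10.8 FPKM with overlap between WT2 and KO7 (limma adjusted p = 0.48). Hadhb, the other subunit, is in the same list. Their differences, -0.63 for Hadha and -0.73 for Hadhb, were the lowest in it. Aldh6a1, picked once its values were known, makes propionyl-CoA from the valine product. It read 45.5 ± 11.9 and 44.7 FPKM, with a difference of -0.03.

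Among other suppliers and exits of propionyl groups, 7 of 10 tested genes were lower, beside 63.6% of all tested genes, with a median difference of -0.16 (-0.05 after median-ratio scaling). Bckdk, the kinase that restrains the keto acid dehydrogenase, read 118 ± 22.3 and 79.7 ± 7.35 FPKM with no overlap (SD, n = 4 each). Crat, the carnitine acyltransferase that can carry off propionyl groups, read 104 ± 31.2 and 67.4 ± 15.0 FPKM (limma adjusted p = 0.48 for both). Bckdk was the 1 of 10 without overlap, where 4.68% of all tested genes did not overlap on the lower side.

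A list of 11 genes around succinyl-CoA and succinate had a median difference of -0.31 (-0.17 after median-ratio scaling). It joins genes that use succinyl-CoA (Suclg1, Suclg2, Sucla2, Oxct1 and Alas1) with Ogdh and Dlst, parts of the complex that makes it from 2-oxoglutarate, and with the succinate dehydrogenase subunits Sdha to Sdhd. All 11 were lower in knockouts, where 63.6% of all tested genes were. The 4 with an unadjusted limma p under 0.05 were Ogdh, Dlst, Sdha and Sdhc, and none of the 5 genes that use succinyl-CoA was among them. Of all tested genes, 7.33% had such a p and were lower. Groups did not overlap for Ogdh, Dlst, Sdha, Sdhc and Sucla2, 5 of 11, against 4.68% of all tested genes that did so on the lower side. Sdha and Sdhc, subunits of succinate dehydrogenase, read 237 ± 42.9 and 158 ± 19.99 FPKM and 542 ± 64.7 and 413 ± 30.6 FPKM (SD, n = 4 each; limma adjusted p = 0.48 for both). Cs, citrate synthase, a marker of mitochondrial content outside the lists, read 215 ± 52.3 and 130 ± 25.4 FPKM with no overlap (SD, n = 4 each; limma adjusted p = 0.48). Its part in the differences of the members was not tested. Sucla2, a subunit of succinyl-CoA synthetase picked once its values were known, had means of 346 and 302 FPKM, far above any of the 7 members.

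**Figure D5:**
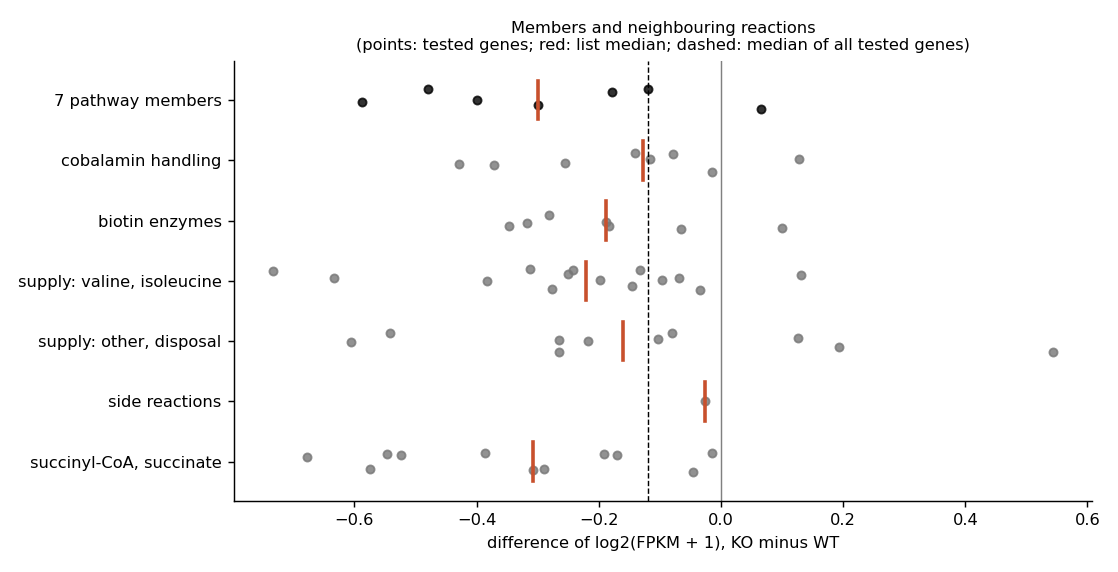
Difference of log2(FPKM + 1), knockout minus wild type, for the 7 members (black) and for the tested genes of the 6 lists around the route (grey); red marks give list medians and the dashed line the median of all tested genes at -0.12. The medians of the members, at -0.30, and of the genes around succinyl-CoA and succinate, at -0.31, lie lowest as deposited.

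Of 12 other cobalamin genes, 8 were tested, with differences from -0.43 for Mtr to 0.13 for Cd320, the cellular receptor for transcobalamin. In knockouts 7 were lower and 1 higher, where 63.6% of all tested genes were lower. The median difference was -0.13 (-0.008 after median-ratio scaling), and 0 had an unadjusted limma p under 0.05. The intestinal and renal uptake genes Cubn, Amn and Lrp2 stayed at or under 0.138 FPKM, and Gif, intrinsic factor, was listed at 0 in all mice. Mtr, the cytosolic cobalamin enzyme methionine synthase, read 2.01 ± 0.576 and 1.23 ± 0.375 FPKM, and the cobalamin exporter Abcc1 5.10 ± 0.962 and 3.80 FPKM. Mmadhc, the partner that directs cobalamin to either enzyme and was chosen after its values were seen, was far more abundant than the members that follow it, at 67.6 to 84.2 FPKM in all 8 mice.

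The other biotin enzymes were lower in 6 of 7 tested genes, beside 63.6% of all tested genes, with a median difference of -0.19 (-0.08 after median-ratio scaling) and 0 with an unadjusted limma p under 0.05. Acacb, the acetyl-CoA carboxylase of the mitochondrial outer membrane, read 26.6 ± 6.37 and 20.8 FPKM, and Hlcs, which attaches biotin to Pcca, 1.81 ± 0.450 and 1.31 FPKM. Acaca and Pcx went with the fat markers: Acaca, the cytosolic acetyl-CoA carboxylase, was at 25.7 FPKM in WT1 and 13.8 FPKM in KO6 against 0.887 to 4.02 FPKM elsewhere, and Pcx, pyruvate carboxylase, at 85.5 and 52.6 FPKM against 14.4 to 24.1 FPKM. Both, and Slc5a6, the biotin transporter, were chosen after their values were seen. Slc5a6 was listed at 0 in WT1 and in all 4 knockouts and at 1.46, 2.70 and 2.11 FPKM in WT2 to WT4. It lay under the filter and overlaps Atraid on the opposite strand, so its values are uncertain. Of the methylmalonyl-CoA side reactions, only Mlycd, malonyl-CoA decarboxylase, was tested, at 43.2 and 42.3 FPKM (difference -0.03, limma adjusted p = 0.925). Abat lay under the filter, Echdc1 and Acot12 were listed at 0 in all mice, and Acsf3 was not analysed here.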

How the data were processed

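Single-end reads of 50 cycles from 8 gastrocnemius muscles were aligned to mm10 by TopHat 2.0.9. Per the labels' protocols, Cufflinks 2.0.2 made the deposited FPKM, while Cufflinks 2.2.1 is listed in the submitters' processing notes. No source used here names the annotation or strand setting. Per the file headers, 2 more columns flag a p-value of the authors under 0.05 and 0.001. Columns KO5 to KO8 match no single labelled knockout. FPKM carry no read totals, so relative depth came from the steps between values under 0.3 and no counting interval is given.

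The row with the highest mean stood for each of 38741 symbols. The 11118 with a mean of at least 1 FPKM were fitted with limma-trend on log2(FPKM + 1), 2-sided, with genotype as the only term and Benjamini-Hochberg adjustment over all of them at a threshold of 0.05. Members also had an exact permutation test over 70 splits, unadjusted. The members and lists were chosen with earlier results of these data known. The genes named are the members, Bcat2, neighbours within 2000 bases, the 2 smallest p in each list and the 2 genes most like each member, of which some are not reported here; others are marked as picked later. Pcx stands for the listed Pc, and Acsf3 was not analysed here. Lengths and strands came from GENCODE M21; RefSeq promoters matched 6 of 7 members, all but Mut. Scripts were tested on simulated data.

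Alternatives were pseudocounts of 0.1 and 0.5, no filter or a mean of at least 5 FPKM, scaling by median ratio or quantiles, leaving out each mouse or both WT1 and KO6, summed rows, and no variance trend. Removal of a loess trend on exon length and GC content (span 0.5) was added after seeing the data. Software was limma 3.58.1 under R 4.3.3, and pandas 2.3.3 and matplotlib 3.10.9 under Python 3.11.15.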

Additional observations from a re-analysis of the deposited data

Results flagged for a closer look

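WT2 stood apart from the other wild-type mice for Mut, at 13.9 FPKM, with a gap of 0.883 of the group's range to the next mouse. It is also the wild-type mouse in which the overlapping gene Cenpq was not listed at 0. KO7 stood apart for Mcee, at 73.7 FPKM, the lowest knockout, with a gap of 0.851 of the range. Both gaps exceed Dixon's critical value of 0.829 for 4 mice, which chance passes in about 1 of 20 groups, and 7 genes in both genotypes were examined.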

How the results depend on the processing

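No member passed the threshold of limma under any of the 18 alternatives. Pcca, Mut, Mmab, Mmaa and Mmachc were lower in knockouts in each one that tested them (17 for Mmaa, whose mean is under 5 FPKM), with Mmab from -0.70 to -0.44 at an unadjusted p under 0.05 in all 18 and an adjusted p from 0.377 to 0.854. The difference of Pccb turned to 0.026 with median-ratio scaling and 0.048 without WT1 (-0.232 to 0.048 when 1 mouse was left out), and that of Mcee to -0.059 without WT3 (-0.059 to 0.174) and -0.105 with the length and GC trend removed. The number of members with an unadjusted p under 0.05, 1 as reported, was 2 with median-ratio scaling, 2 with quantile scaling and 3 with the length and GC trend removed, and ran from 1 to 3 when 1 mouse was left out, with 3 without WT2 and 2 without KO6. Across the table, 3 genes passed as reported, 11 without WT1 and KO6 and from 4 to 9 when 1 mouse was left out, highest without WT1. The cause of these shifts was not tested. No paired analysis was possible because the knockout columns carry numbers 5 to 8, which match no wild-type number. With 4 mice a group, the 95% intervals of the members still reach from 50.4% to 138% of the wild-type level on the log2(FPKM + 1) scale.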
